A study of Apis mellifera with 12 samples.

Results

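Circular RNAs (circRNAs) whose ovary level was lower in caged than in released and laying honey bee (Apis mellifera) queens were examined. A circRNA was taken when its reads summed to at least 60 over the 12 libraries and its highest value in the 3 caged libraries lay below its lowest value in the 6 libraries of released and laying queens. Of 20244 circRNAs in the table, 2279 reached the read sum and 45 of these met the rule, and these 45 are called the dipping circRNAs. They were chosen by the caged, released and laying values, so the dip itself is a description and was not tested. Virgin values entered only through the read sum. The libraries came from 4 groups of 3 samples each, all from queen ovaries. Caged queens had been confined for 7 days inside their original colony, which stopped egg laying, and were sampled at the end of that time. Released queens had also been caged for 7 days, were then let out, and were sampled on day 8 when they laid again. Laying queens laid normally and virgin queens had no treatment, and no age of the queens is stated. Whether the samples of one group came from different queens is also not stated, so the spread between them may be technical.

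A circRNA is made by back-splicing, in which the end of an exon is joined to the start of the same or an earlier exon, so that the RNA closes into a loop without free ends. Loops resist exonucleases, and the libraries were digested with RNase R, an exonuclease that removes linear RNA. The level of a circRNA depends on how much of its host gene is transcribed, on how often the back-splice is used instead of linear splicing, and on its decay. A queen ovary consists of many tubules called ovarioles, in which oocytes grow with the help of nurse cells and follicle cells, and caging a queen stops her from laying. In bulk ovary samples, fewer cells of a type and less RNA per cell cannot be told apart. The table names circRNAs by position and pairs none with a gene, so no host gene, cell type marker or sequence is given here. Positions are those of the deposited table, in the Amel_4.5 build.

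Levels are given in CPM, the reads across a back-splice junction divided by all circRNA reads of the library and multiplied by 1000000. Libraries held 170382 to 206697 circRNA reads in caged, 106396 to 163875 in released, 89106 to 173922 in laying and 66487 to 201414 in virgin ovaries. The caged libraries were deeper than every released library and than laying replicates 1 and 3, and they listed 5649 to 6067 circRNAs each, against 4474 to 5212 in released and 3631 to 5318 in laying libraries. The part of this difference in the dip was not tested. Together the 45 dipping circRNAs took 3.32%, 3.54% and 3.55% of the reads in caged libraries. They took 5.47%, 5.74% and 4.85% in released libraries, 4.84%, 5.22% and 5.57% in laying libraries and 5.83%, 6.50% and 5.79% in virgin libraries. The virgin shares, which the separation did not use, lay above those of the other groups, but this rested on the most abundant circRNA, ame_circ_0009157. Without it the shares were 2.30%, 2.55% and 2.51% in caged libraries, 4.12%, 3.95% and 3.22% in released, 3.65%, 3.77% and 4.15% in laying and 3.88%, 4.35% and 4.03% in virgin libraries, so that virgin overlapped released and laying.

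The 45 dipping circRNAs were 1.97% of the 2279 that could qualify. One in 84 of the ways to choose 3 of 9 libraries picks the caged ones, a share of 1.19% that would give 27.1 circRNAs if the 9 values of each were exchangeable and untied. The circRNAs of a library share its scaling and its RNA, so no test is attached to this difference. The opposite pattern, all caged values above all released and laying values, was met by 44 circRNAs (1.93%). The same count for the other groups gave 27 circRNAs with released lowest and 32 with released highest. It gave 63 with laying lowest and 53 with laying highest. With the deposited CPM, laying libraries were thus set apart more often than caged ones in both directions, whereas with TMM scaling the caged group was highest for more circRNAs (61) than the laying group (54). Under TMM scaling of the counts (trimmed mean of M values) the caged group was lowest for 36 circRNAs, all among the 45, and highest for 61. Those of the 45 lost with TMM scaling included ame_circ_0008992, ame_circ_0013452 and ame_circ_0018560, described below. With DESeq2 size factors it was lowest for 41, of which 40 were among the 45, and highest for 49. Dips and peaks were thus almost equally many with the deposited CPM, and peaks were the more numerous with the other 2 scalings.

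**Figure D1:**
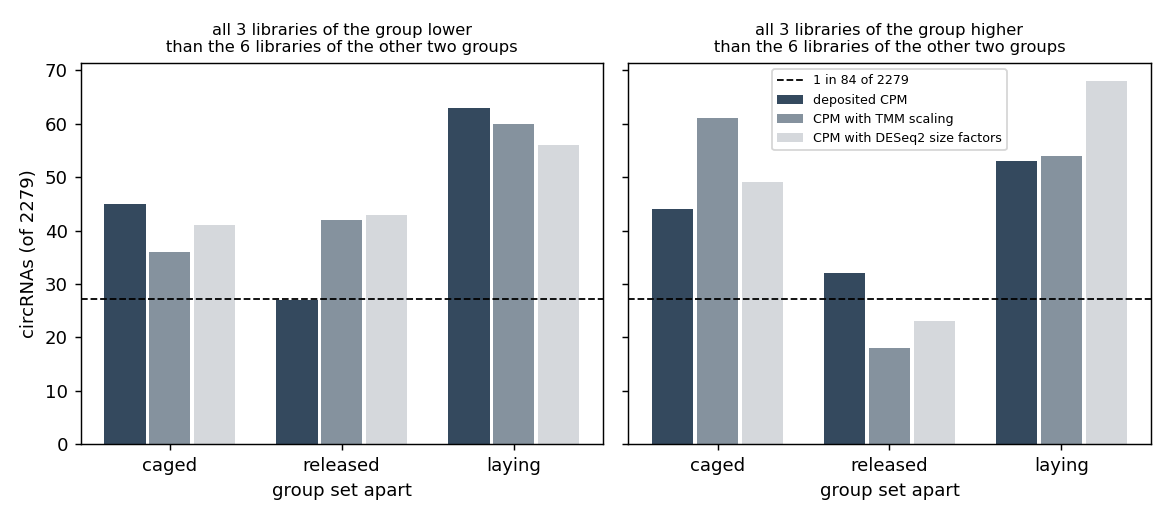
Number of circRNAs, of 2279 with a read sum of at least 60, for which all 3 libraries of the named group lay below (left) or above (right) the 6 libraries of the other two among caged, released and laying. Bars show the 3 scalings and the dashed line the 27.1 circRNAs of a 1 in 84 share. Caged was lowest for 45, 36 and 41 circRNAs and laying for 63, 60 and 56.

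The dip was mostly narrow at its edge and moderate in its mean. The mean of the caged libraries was 11.2% to 76.9% of the mean of the 6 released and laying libraries, with a median of 57.9%, and was under 50% for 14 of the 45. On the log2((mean CPM + 1)/(mean CPM + 1)) scale the median difference of caged from released and laying was -0.78, beside a median near 0 (-0.000909) over the 2279. The lowest released or laying value was a median of 1.08 times the highest caged value. This ratio was under 1.1 for 24 circRNAs, at least 1.2 for 8 and at least 1.5 for 1. In the 2 libraries that form the edge, exact 95% Poisson intervals of the reads, which cover counting error only, did not overlap for 3 circRNAs, ame_circ_0009157, ame_circ_0016977 and ame_circ_0011709. For 17 of the 45 the lowest released or laying library held under 20 reads. Released replicate 3 was the lowest of the 6 for 16 circRNAs, more than any of the others, and caged replicate 3 was the highest caged library for 20.

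Just inside the rule were ame_circ_0011161 (ratio 1.01), ame_circ_0016174 (ratio 1.01) and ame_circ_0018560 (ratio 1.02). Just outside were ame_circ_0008772 (ratio 0.995), ame_circ_0013735 (ratio 0.992) and ame_circ_0003966 (ratio 0.991). Beside the 24 dipping circRNAs with a ratio under 1.1, another 49 that reached the read sum missed the rule by less than the same factor. The rule thus cut through a continuous range.

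**Figure D2:**
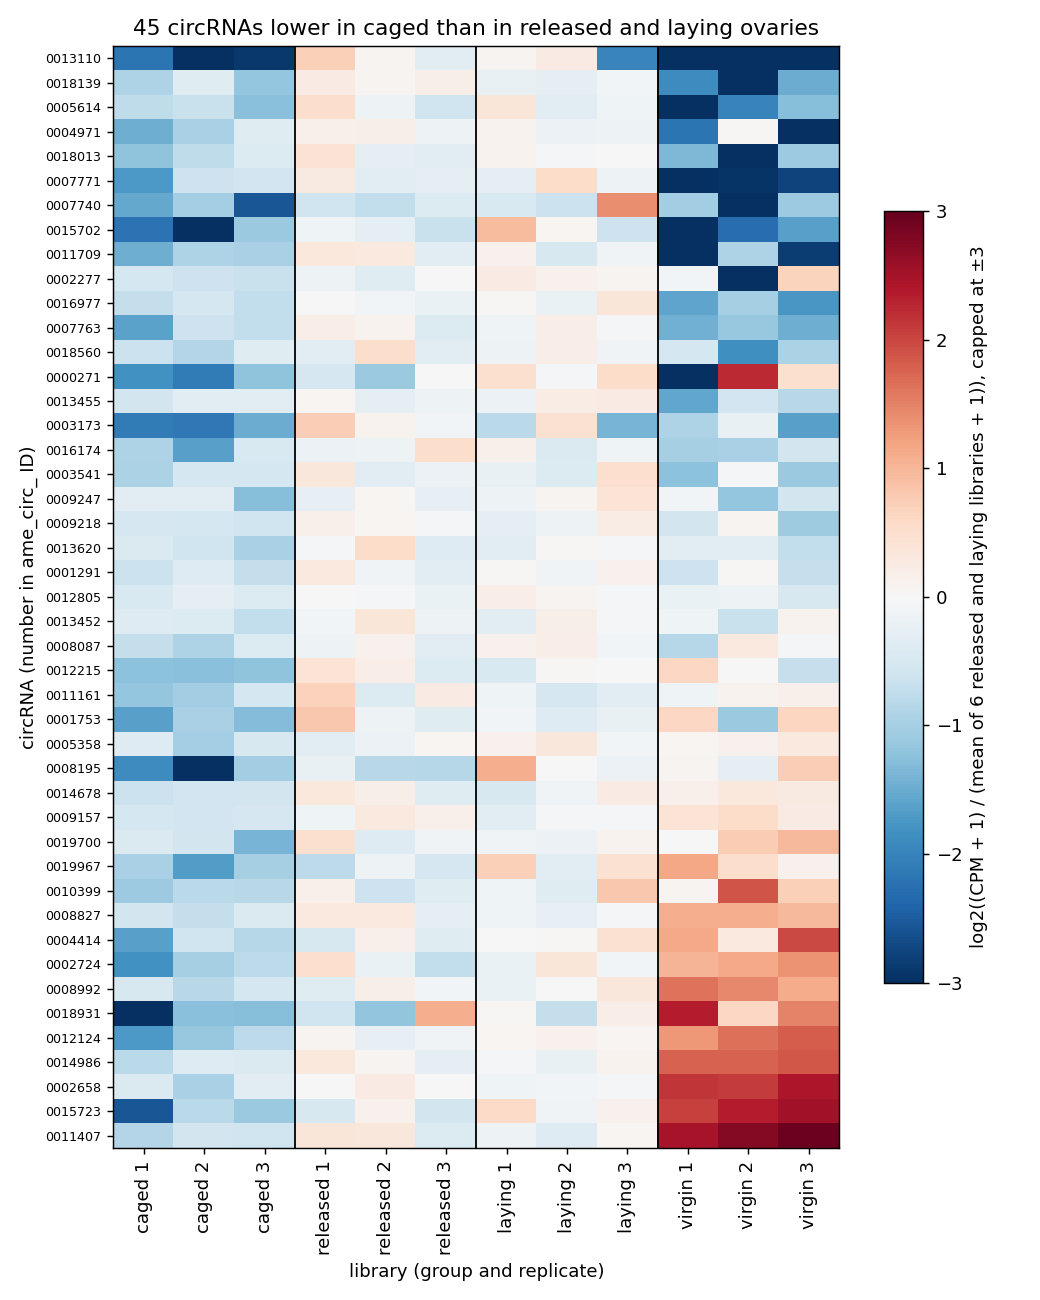
Level of the 45 dipping circRNAs (rows) in the 12 libraries (columns), as log2((CPM + 1)/(mean of the 6 released and laying libraries + 1)), with rows ordered by the virgin level and colours capped at ±3. The caged columns are below 0 in every row, as the rule requires, while the virgin columns run from the lowest values at the top to the highest at the bottom.

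The widest gap belonged to ame_circ_0012215, on the plus strand of LG3 between 1090193 and 1091573. It had 184, 182 and 187 CPM in caged libraries, 573, 500.4 and 324 CPM in released, 315, 443 and 438 CPM in laying and 670.3, 436 and 269 CPM in virgin libraries. The 3 caged values lay within a few CPM of each other and the lowest of the other 6 was 1.68 times the highest of them, while the virgin values spread past the released and laying ones on both sides. The caged values rested on 38, 31 and 33 reads. At the edge stood 33 reads against 42, and their Poisson intervals overlapped. This circRNA lies in a locus on LG3 with 30 circRNAs of at least 60 reads, of which it was the only one that dipped.

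The circRNA ame_circ_0001753, on the minus strand of LG10 between 8455250 and 8455454, had 62.9, 99.8 and 79.4 CPM in caged, 348, 177 and 153 CPM in released, 187, 149 and 168 CPM in laying and 303, 90.2 and 311 CPM in virgin libraries. Released replicate 1 and virgin replicates 1 and 3 stood high, and virgin replicate 2 fell among the caged values. For ame_circ_0012124, on the minus strand of LG2 between 9972218 and 9972408, the values were 58.1, 88 and 113 CPM in caged, 207, 165 and 180.1 CPM in released, 202, 213 and 202 CPM in laying and 482, 617 and 688 CPM in virgin libraries. Here the released and laying values formed one narrow range, the caged values lay below it and the virgin values above it, with no overlap.

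The circRNA ame_circ_0015702, on the plus strand of LG5 between 9141630 and 9145087, had 111, 47 and 238 CPM in caged, 469.9, 427 and 324 CPM in released, 1004, 540.5 and 337 CPM in laying and 49.6, 105 and 168 CPM in virgin libraries. Its caged mean was 25.6% of the released and laying mean, and its caged and virgin values overlapped. Laying replicate 1 stood above all other libraries.

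The circRNA ame_circ_0011709 spans 76752 nt on the plus strand of LG2 between 4622669 and 4699421, the longest of the 45. It had 609.6, 892 and 857 CPM in caged, 2096, 2075 and 1333 CPM in released, 1852, 1207 and 1582 CPM in laying and 164, 887 and 235 CPM in virgin libraries. Caged values were below every released and laying value, and virgin replicates 1 and 3 were lower still, while virgin replicate 2 lay among the caged ones. It starts a locus on LG2 with 26 circRNAs of at least 60 reads, in which it alone dipped. The other 25 summed to 75481 ± 3559 CPM in caged, 79249 ± 1453 CPM in released, 87186 ± 18655 CPM in laying and 14542 ± 4559 CPM in virgin ovaries (SD, n = 3 each).

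The circRNA ame_circ_0016977, on the plus strand of LG6 between 9962249 and 9962721, had 3062, 3463 and 2973 CPM in caged, 5000.2, 4759.7 and 4332 CPM in released, 5097, 4341 and 6464 CPM in laying and 1678, 2497 and 1486 CPM in virgin libraries. Its groups followed one order, with virgin lowest, caged next and no overlap between these and the released and laying values. Also among the wider gaps were ame_circ_0009218, at 679 ± 23.1 CPM in caged, 1026 ± 77.1 CPM in released and 959 ± 174 CPM in laying ovaries, and the less abundant ame_circ_0007740, at 23.6 ± 11.9, 47.9 ± 5.72 and 96.4 ± 81.8 CPM in the same groups (SD, n = 3 each). Virgin libraries held 675, 1053 and 470.1 CPM of ame_circ_0009218 and 34.8, 0 and 33.6 CPM of ame_circ_0007740, so that those of the first reached below the caged and into the released and laying range, and those of the second did not exceed the highest caged value. The edge of ame_circ_0007740 rested on 6 reads in caged replicate 2 and 7 reads in released replicate 2.

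**Figure D3:**
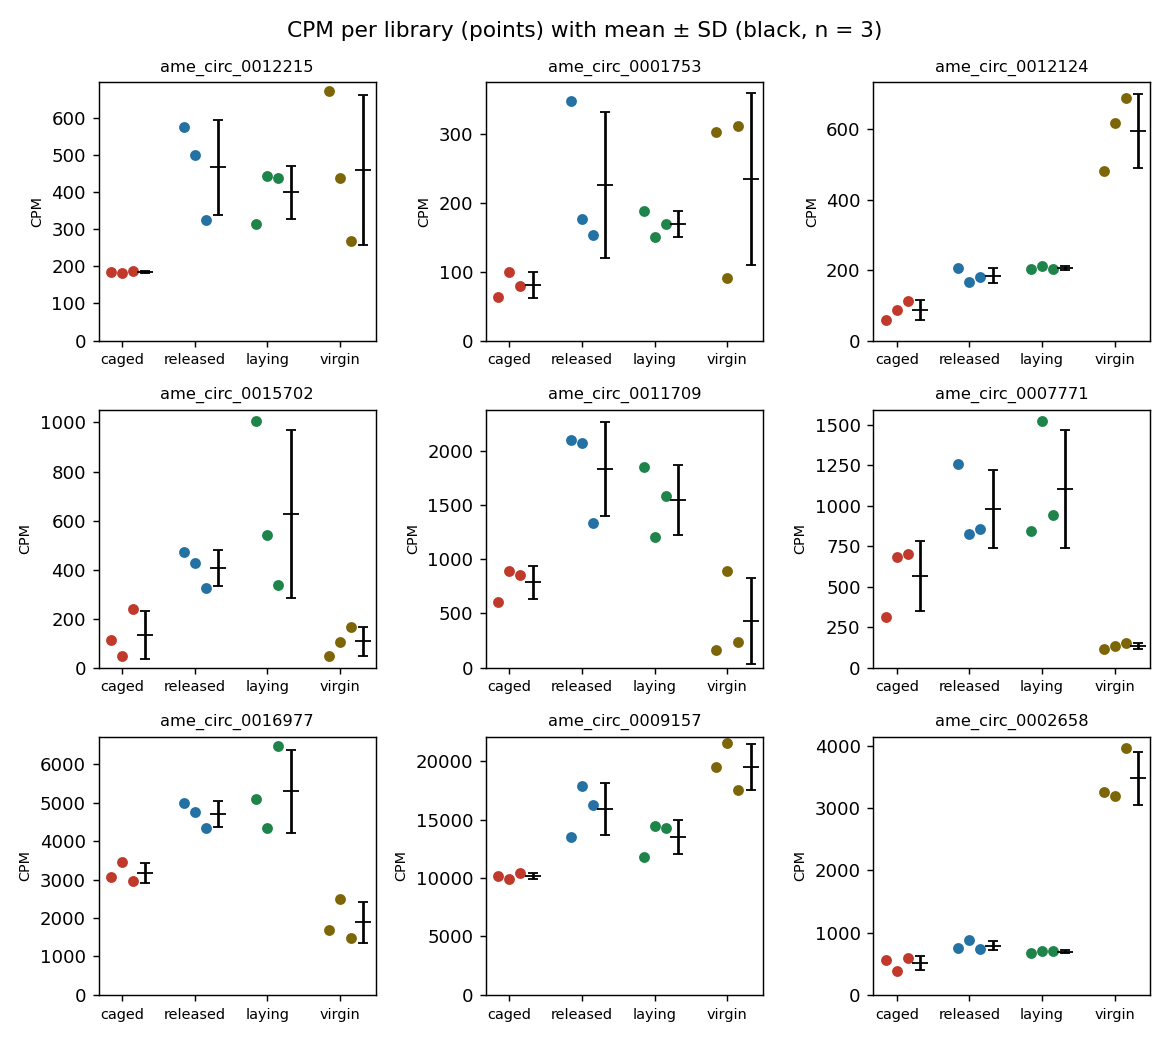
CPM of 9 dipping circRNAs in each library (points) by group, with the mean ± SD of 3 libraries beside them. The caged points lie below every released and laying point in each panel, and the virgin points lie above all others for ame_circ_0002658 and ame_circ_0012124 and below all others for ame_circ_0007771 and ame_circ_0016977.

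By abundance, the mean over the released and laying libraries was between 29.2 and 14701 CPM with a median of 236 CPM, and 10 of the 45 exceeded 1000 CPM. The most abundant was ame_circ_0009157, on the minus strand of LG1 between 21227866 and 21228686, with 10194, 9919 and 10440.5 CPM in caged, 13478, 17898 and 16285 CPM in released, 11836, 14443 and 14264 CPM in laying and 19472, 21523 and 17554 CPM in virgin libraries. The caged values differed from each other by less than those of any other group and made up 69.3% of the released and laying mean, and the virgin values overlapped the released ones at the top. Next came ame_circ_0012805, on the minus strand of LG3 between 4191272 and 4191740, with 4509, 5171 and 4709.6 CPM in caged, 6288, 5944 and 5449 CPM in released, 7106, 6652 and 5970.4 CPM in laying and 5451, 5580.04 and 4499.8 CPM in virgin libraries. Its caged mean was 76.9% of the released and laying mean, the smallest dip of the 45, and virgin replicates 1 and 2 lay just inside the released and laying range while virgin replicate 3 was just below the lowest caged value.

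The circRNA ame_circ_0014678, on the plus strand of LG5 between 12824075 and 12824301, had 3803, 4026 and 4063 CPM in caged, 7453, 6810.1 and 4693 CPM in released, 4325, 5531 and 7138 CPM in laying and 6623, 7490.2 and 7195 CPM in virgin libraries. The caged values were close together, while released and laying values spread widely and overlapped each other, and the virgin values lay in the upper part of their range or, in replicate 2, just above it. A pair on LG4 came from one place, as ame_circ_0013452 (12127300 to 12129508, plus strand) and ame_circ_0013455 (12128906 to 12129508) share their downstream end. The longer one was at 1347 ± 169 CPM in caged, 1993 ± 417 CPM in released, 1833 ± 328 CPM in laying and 1675 ± 437 CPM in virgin ovaries (SD, n = 3 each). The shorter one was at 1957 ± 183 CPM in caged, 2355 ± 265 CPM in released, 2757 ± 429 CPM in laying and 1339 ± 427 CPM in virgin ovaries (SD, n = 3 each). Virgin values of the longer one spread over the caged, released and laying ranges and those of the shorter one did not exceed the highest caged value, so that circRNAs with a common end differed in the virgin level.

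Counts of all 12 libraries were fitted together with edgeR (quasi-likelihood F test, TMM scaling, Benjamini-Hochberg adjustment over 3215 circRNAs that passed a filter on low counts), and a circRNA was called at an adjusted p under 0.05. All 45 dipping circRNAs passed the filter, which the rule favours, since it needs a value above 0 in all 6 released and laying libraries. For released vs laying, whose direction the rule does not set because it treats these groups alike, 0 of the 45 and 0 of 3215 (0%) were called. The rule does use the values of both groups, and a circRNA low in either tends to miss it. It can thus limit the size of this difference, so small differences among the 45 are a description only. At an unadjusted p under 0.05 there were 1 of the 45 and 232 of 3215 (7.22%), and DESeq2 called 1 of 3215 and 0 of the 45. The 1 below that level was ame_circ_0008195 (LG1), at 141, 91.5 and 90.1 CPM in released and 352, 167 and 146 CPM in laying libraries, which do not overlap, with a log2 fold change of -1.09 (SE 0.50, adjusted p = 0.681). The median log2 fold change of released vs laying was -0.05 over the 45 and 0.04 over all tested, and the 45 ranged from -1.09 to 0.56. The 95% interval of the difference lay within 2-fold in either direction for 24 of the 45 and within 4-fold for 41, so for the other circRNAs larger differences were within the interval. Intervals were counted for the 45 only, so no share over the 3215 stands beside these numbers. The 45 also had a higher median CPM than the 2279 (268 against 107), so the numbers are not read as a trait of the 45. For ame_circ_0016977 the interval was -0.66 to 0.27 on the log2 scale, and for ame_circ_0012215 it was -0.54 to 0.93.

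The rule used the contrasts of caged with laying and of released with caged, so their calls say nothing more about the 45. For caged vs laying 0 of the 45 were called by edgeR, against 3 of 3215 (0.0933%, with 0.0622% higher and 0.0311% lower), with 20 of the 45 and 280 of all (8.71%) at an unadjusted p under 0.05, and 7 of the 45 and 27 of all called by DESeq2. For released vs caged 0 of the 45 and 0 of 3215 (0%) were called by edgeR and by DESeq2, with 19 of the 45 and 205 of all at an unadjusted p under 0.05. The smallest adjusted p of a dipping circRNA (edgeR) was 0.108 for caged vs laying and 0.557 for released vs caged.

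Virgin levels of the dipping circRNAs varied widely. All 3 virgin values were at or above the lowest released or laying value for 18 of the 45 and at or below the highest caged value for 13, and the other 14 fell in neither class, with virgin values on different sides of one or both of these limits. By their mean, 25 were above the lowest released or laying value, 17 below the highest caged value and 3 between. These classes were counted for the 45 only, so no share over the 2279 stands beside them. All virgin values lay above all 6 released and laying values for 8 of the 45, against 18.3% of the 2279, and below all 6 for 13, against 15%. Virgin values lay above all caged values for 19 of the 45, against 24% of the 2279, and below all caged values for 5, against 23.5%. Since the rule chose circRNAs that are low in caged and high in released and laying libraries, it shifts these shares by itself. On the log2((mean CPM + 1)/(mean CPM + 1)) scale the median over the 45 was -0.55 for caged over virgin (0.02 over the 2279), 0.19 for released over virgin (0.05) and 0.22 for laying over virgin (-0.04). With TMM scaling these medians over the 45 were -0.31, 0.32 and 0.42. No medians over the 2279 stand beside these, and a change of scaling moves all circRNAs of a library together. With the deposited CPM, the quartiles of laying over virgin were -0.68 and 1.04 over the 45. Over the 2279 they were -1.08 and 0.96, so a wide spread around virgin was not particular to the 45.

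**Figure D4:**
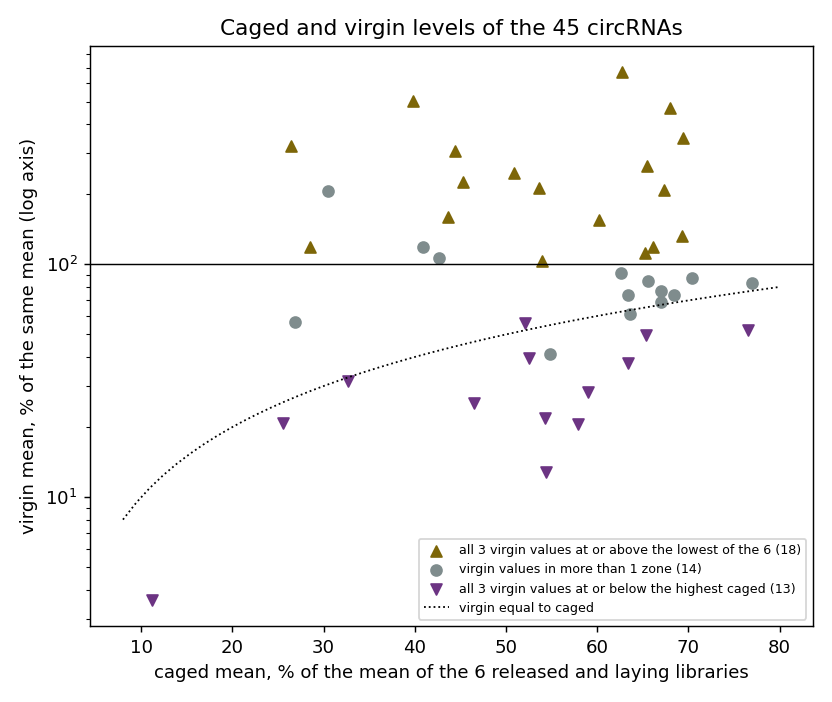
Mean level of each of the 45 dipping circRNAs in virgin libraries (vertical, log axis) against that in caged libraries (horizontal), both as a percent of the mean of the 6 released and laying libraries. Symbols separate the 18 with all virgin values at or above the lowest released or laying value, the 13 with all at or below the highest caged value and the 14 others. The horizontal line marks the released and laying mean and the dotted curve marks a virgin level equal to the caged one.

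In the fit, laying vs virgin called 17 of the 45, 10 higher and 7 lower in laying ovaries, beside 731 of 3215 (22.7%, with 12.5% higher and 10.3% lower). Caged vs virgin called 21 of the 45, 4 higher and 17 lower in caged ovaries, beside 687 of 3215 (21.4%, with 13.4% higher and 7.96% lower). These comparisons share the virgin libraries, and each takes its other group from the values that chose the 45. Without caged replicate 2 the caged vs virgin count was 13 of the 45 and 494 of all circRNAs. Without virgin replicate 3 it was 16 of the 45 and 456 of all circRNAs. With library totals in place of TMM, caged vs virgin calls over all circRNAs were 353 higher and 333 lower, against 431 and 256 with TMM, and those of the 45 were 2 higher and 18 lower. The median log2 fold change over all tested circRNAs moved by -0.15 for laying vs virgin and -0.18 for caged vs virgin with library totals, and by -0.10 for caged vs virgin with DESeq2 size factors, and moved by under 0.1 otherwise. Calls against virgin ovaries are given for single circRNAs only where they held in all 18 alternative fits.

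Among those with high virgin levels, ame_circ_0002658, on the plus strand of LG11 between 14556716 and 14557296, had 552, 376 and 584 CPM in caged, 752, 873 and 739 CPM in released, 675, 701 and 707 CPM in laying and 3262, 3189 and 3962 CPM in virgin libraries. The virgin values were far above all others, and the released and laying values lay close together. It fell 5.97-fold in caged vs virgin ovaries (log2 -2.58, SE 0.25, edgeR adjusted p = 5.53e-07) and 4.47-fold in laying vs virgin ovaries (log2 -2.16, SE 0.25, adjusted p = 2.88e-06). The circRNA ame_circ_0011407, on the minus strand of LG2 between 14880335 and 14880582, had 135, 170.2 and 165 CPM in caged, 319.6, 317 and 189 CPM in released, 225, 189.7 and 258 CPM in laying and 1390.2, 1699.6 and 1922 CPM in virgin libraries. It fell 9.17-fold in caged vs virgin (adjusted p = 1.99e-07) and 6.67-fold in laying vs virgin ovaries (edgeR adjusted p = 1.07e-06), and virgin values did not overlap those of any other group.

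The circRNA ame_circ_0014986, on the minus strand of LG5 between 14018266 and 14018540, had 547, 728 and 704 CPM in caged, 1184, 1001 and 775 CPM in released, 907, 816 and 1021 CPM in laying and 3252, 3234 and 3450.4 CPM in virgin libraries. The virgin values were close together and far above those of the other groups. It fell 4.37-fold in caged vs virgin (edgeR adjusted p = 2.85e-06) and 3.25-fold in laying vs virgin ovaries (adjusted p = 2.85e-05). The long circRNA ame_circ_0015723, on the minus strand of LG5 between 9321483 and 9342234, had 38.7, 135 and 108 CPM in caged, 169, 256 and 162 CPM in released, 352, 218 and 258 CPM in laying and 983, 1218 and 1368 CPM in virgin libraries. It fell 11-fold in caged vs virgin (edgeR adjusted p = 2.38e-06) and 3.82-fold in laying vs virgin ovaries (adjusted p = 0.000454), and caged replicate 1 was its lowest library.

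Further circRNAs with called differences were ame_circ_0012124, given above, which fell 5.92-fold in caged vs virgin ovaries (edgeR adjusted p = 1.71e-05), and ame_circ_0008827 on LG1, at 588 ± 56.8 CPM in caged, 953 ± 194 CPM in released, 793 ± 53.4 CPM in laying and 1816 ± 90 CPM in virgin ovaries (SD, n = 3 each). Its virgin values lay above all others, and it fell 2.68-fold in caged vs virgin ovaries (edgeR adjusted p = 0.000192). On LG11, ame_circ_0002724 had 62.9, 112 and 131 CPM in caged and 457, 496 and 571 CPM in virgin libraries and fell 4.35-fold (edgeR adjusted p = 0.000362). On LG13, ame_circ_0004414 had 62.9, 129 and 108 CPM in caged and 432, 241 and 781 CPM in virgin libraries and fell 4.32-fold (edgeR adjusted p = 0.00115). Neither overlapped between these groups, and virgin replicate 2 was the lowest virgin library of ame_circ_0004414.

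Among those with low virgin levels, ame_circ_0007771, on the plus strand of LG16 between 6919774 and 6920989, had 314, 681 and 704 CPM in caged, 1259, 824 and 856 CPM in released, 847, 1524 and 943 CPM in laying and 114, 135 and 151 CPM in virgin libraries. Its caged values lay between the virgin ones and the rest, with caged replicate 1 closest to virgin. It rose 4.84-fold in caged vs virgin (log2 2.28, SE 0.36, edgeR adjusted p = 0.000112) and 9.31-fold in laying vs virgin ovaries (log2 3.22, SE 0.36, adjusted p = 2.60e-06). The circRNA ame_circ_0016977, given above, rose 3.17-fold in laying vs virgin ovaries (edgeR adjusted p = 2.57e-05).

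In the same direction, laying vs virgin called ame_circ_0011709 (4.51-fold, edgeR adjusted p = 0.000583), ame_circ_0015702 (6.83-fold, edgeR adjusted p = 0.00061) and ame_circ_0013455 (2.37-fold, edgeR adjusted p = 0.000656). For ame_circ_0011709 the log2 fold change was 2.17 (SE 0.41), and without virgin replicate 2, whose value was among the caged ones, it was 3.13. The circRNA ame_circ_0018560, just inside the rule, was at 816 ± 151 CPM in caged, 1258 ± 459 CPM in released, 1241 ± 166 CPM in laying and 622 ± 265 CPM in virgin ovaries (SD, n = 3 each). Its caged and virgin values overlapped.

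The remaining 19 of the 45 had means of 29.2 to 976 CPM over the released and laying libraries, and their caged mean was 11.2% to 67.0% of it. All virgin values were at or above the lowest released or laying value for 6 of the 19 and at or below the highest caged value for 4. The edgeR fit called 3 of them higher in laying vs virgin and 5 lower in caged vs virgin ovaries. Chosen after their values were seen, the lowest relative caged mean belonged to ame_circ_0013110, on the minus strand of LG3 between 7821870 and 7822316, with 19.4, 0 and 11.3 CPM in caged, 150.4, 97.6 and 72.1 CPM in released, 97.4, 109 and 22.4 CPM in laying and 9.93, 0 and 0 CPM in virgin libraries. Its lowest laying value was close to its highest caged value, and it was listed at 0 in caged replicate 2 and virgin replicates 2 and 3. It rested on 4, 0 and 2 reads in caged libraries and on 2 reads in laying replicate 3. The smallest count above 0 in the table was 2, so its relative caged mean is imprecise. The circRNA ame_circ_0003173, on the plus strand of LG11 between 9171811 and 9186489, had 48.4, 47 and 73.8 CPM in caged, 348, 226 and 198 CPM in released, 119.9, 287 and 78.6 CPM in laying and 109, 180.5 and 67.2 CPM in virgin libraries. Released values were the highest apart from laying replicate 2, and laying replicate 3 and virgin replicate 3 were near the caged values.

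Of the 43 loci (stretches joined from circRNAs of at least 60 reads whose spans overlap on one strand) that held the 45, 17 held no other circRNA of that read sum and 26 held 132 others. Of these 132, 79 had a lower caged mean than the mean over the 6 released and laying libraries, as did 1142 of all 2279. Their sum was lower in 16 of the 26 loci, with a median ratio of caged to released and laying of 0.929, and it dipped by the same rule in 2. Counting the dipping circRNAs too, the sum dipped in 11 of the 26. The rule favours this count, since these sums contain circRNAs chosen because they dip. Reads of overlapping circRNAs can be hard to assign, and how the authors' calling divided them is not stated. Of the 45, 27 (60%) shared a start or an end with another circRNA of at least 60 reads, against 56.3% of the 2279. Of 47 such partners that did not dip, 33 (70.2%) had a lower caged mean by the same measure. The 33 included all 7 other circRNAs of the LG16 locus described below and several of the LG1 locus, so they were not spread evenly over loci.

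The summed neighbours dipped on LG1 and LG16. On LG1 between 20479379 and 20487730 (plus strand), 7 circRNAs overlapped, and ame_circ_0008992 was the one that met the rule with the deposited CPM. It had 885, 687 and 851 CPM in caged, 959, 1391 and 1162 CPM in released, 1079, 1248 and 1559.9 CPM in laying and 3823, 3339 and 2669.6 CPM in virgin libraries, and fell 3.54-fold in caged vs virgin ovaries (edgeR adjusted p = 4.00e-05). The other 6 summed to 2085, 1696 and 1487 CPM in caged, 2819.7, 3338 and 3449.7 CPM in released, 2511, 2317 and 3490.2 CPM in laying and 2656, 2828 and 2124 CPM in virgin libraries. The caged sums were the lowest of the 4 groups, and all 7 circRNAs had a lower mean in caged than in released and laying ovaries. They differed in the virgin level. The circRNA ame_circ_0008996 shares its start with ame_circ_0008992 and was the most abundant of the 6. It averaged 1094 CPM in caged, 2028 CPM in released, 1616 CPM in laying and 1137 CPM in virgin ovaries, while ame_circ_0008992 was highest in virgin ones.

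On LG16 between 6919772 and 7012435 (plus strand), 9 circRNAs overlapped and included the dipping ame_circ_0007771 and ame_circ_0007763. These end at the same position, 6920989, and start 2 nt apart, so the division of reads between these near-identical loops is uncertain. The circRNA ame_circ_0007763 had 281, 552 and 516 CPM in caged, 977, 921 and 639 CPM in released, 787, 989 and 819 CPM in laying and 313, 391 and 311 CPM in virgin libraries. Its virgin values fell among the caged ones, unlike those of ame_circ_0007771. It rose 2.89-fold in laying vs virgin ovaries (edgeR adjusted p = 0.000806). The other 7 circRNAs summed to 72.6, 481 and 511 CPM in caged, 846, 574 and 549 CPM in released, 2249, 2340.1 and 617 CPM in laying and 372, 180.5 and 134 CPM in virgin libraries. Laying replicates 1 and 2 stood far above the rest, while laying replicate 3 and released replicates 2 and 3 were only a little above caged replicates 2 and 3, and caged replicate 1 was far below them. All 9 circRNAs had a lower caged mean than the mean over the 6 released and laying libraries together. Against released ovaries alone this did not hold for ame_circ_0007768, whose caged mean was 51.9 CPM against a released mean of 34.6 CPM, nor for ame_circ_0007776, which was listed at 0 in both.

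**Figure D5:**
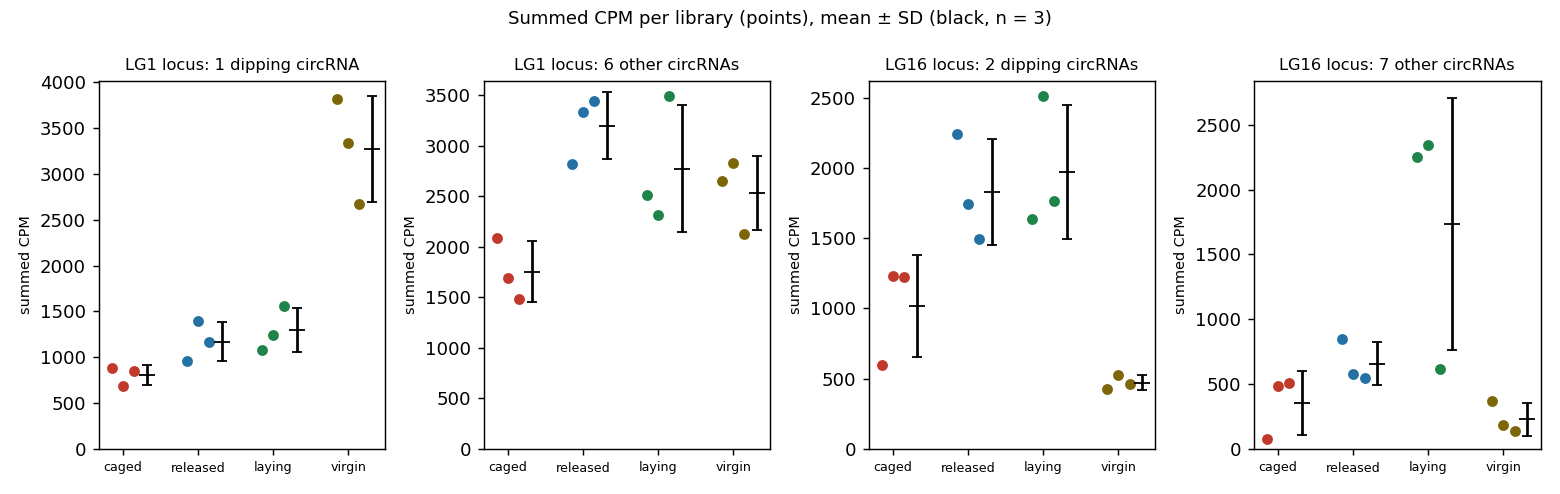
Summed CPM per library (points) with the mean ± SD of 3 libraries, for the dipping circRNAs and for the other circRNAs of the LG1 locus (left pair) and the LG16 locus (right pair). The caged sums are below every released and laying sum in all 4 panels, as the rule requires for the dipping circRNAs. The virgin sums are highest for ame_circ_0008992 on LG1 and low on LG16.

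In span, the 45 dipping circRNAs had a median of 1380 nt between the back-spliced ends (from 190 to 76752 nt), against 1936 nt for the 2279. It was 2454.5 nt for the 44 whose caged values lay above all released and laying values. Spans of up to 500 nt made up 13 of the 45 (28.9%), against 19.2% of the 2279 and 2 of the 44 (4.55%). Spans over 10000 nt made up 6 of the 45 (13.3%), against 18.8% of the 2279 and 10 of the 44 (22.7%). These are descriptions of circRNAs that share libraries, and no test was made. The 45 lay on 15 chromosomes or scaffolds, with 8 on LG1 and 4 each on LG2, LG5, LG8 and LG11, and 25 were on the plus strand and 20 on the minus strand. In their mean CPM over all libraries they had a median of 268, against 107 for the 2279, and 36 (80%) were listed in all 12 libraries, against 62.8%, which the rule favours because it needs a value above 0 in 6 of them.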

How the data were processed

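Ribosomal RNA was removed from ovary RNA, which was then treated with RNase R and made into directional libraries, per the labels' protocols, and the submitters' processing notes name Bowtie. The sources used here do not give the circRNA caller. The authors deposited read counts per circRNA and columns headed TPM. These deposited columns equal the count over the library total, so they are CPM without a length term. The smallest count above 0 was 2. The rule was applied to the deposited CPM. The counts went into edgeR 4.0.16 (R 4.3.3) after filterByExpr (minimum count 5, total 15), with the 4 groups in one fit and no block, and into DESeq2 1.42.0 as an alternative. The edgeR steps were tested on simulated counts for laying vs virgin only, with the same spread for all circRNAs. There 146 of 200 circRNAs changed 4-fold were called, so some changes of that size were missed. Standard errors were derived from the F statistic. Besides the scaling, the alternatives changed the read sum, the ratio, the filter, the groups fitted, the pseudocount, the replicate block and the libraries kept. Named circRNAs are the 10 with the highest mean, the 10 with the widest gap, up to 10 called per comparison by smallest p, the 5 most abundant with high and with low virgin values, 3 just inside and 3 just outside the rule, and those sharing a locus, while ame_circ_0008195, ame_circ_0013110, ame_circ_0003173 and the neighbours ame_circ_0008996, ame_circ_0007768 and ame_circ_0007776 were chosen after their values were seen. The 45 circRNAs and all rules were chosen with earlier results of these data known. P-values set the differences between groups against the spread between the samples fitted, which may be technical. Replicate libraries of a group differed by more than sampling noise.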

Additional observations from a re-analysis of the deposited data

How the results depend on the processing

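The number of dipping circRNAs was 54 and 39 with a read sum of at least 30 and 120, 43 with the sum over 9 libraries, 36 with TMM, 41 with DESeq2 size factors and 35 of 1301 loci when counts were summed by locus. It was 1 with a ratio of at least 1.5. With a replicate left out it was 84, 111 and 106 for caged replicates 1, 2 and 3 and 57 to 81 for the others. The 44 circRNAs with all caged values above all released and laying values became 67 with a read sum of at least 30 and 0 with a ratio of at least 1.5. They became 23 as loci and 56 to 111 without one replicate. The rule is easier to meet with fewer libraries, so the share of 1 in 84 does not hold for the counts without a replicate. The shares that apply there, and the numbers of circRNAs reaching the other read sums, are not given here. Neither set of counts therefore shows whether the excess over 27.1 held. Calls for released vs laying were 11 without the low-count filter, 1 with DESeq2 and 0 to 3 without one replicate. Calls for caged vs laying were 32, 27 and 0 to 9, those among the 45 being 1, 7 and 0 to 1. Calls for released vs caged were 10 without the filter and 0 to 2 without one replicate. For laying vs virgin the count was 514 to 758 without one replicate, and for caged vs virgin it was 456 to 703, with 15 to 21 and 13 to 21 of the 45. The 456 came without virgin replicate 3, where 16 of the 45 were called. The 13 came without caged replicate 2, where 494 of all circRNAs were called. The cause was not tested. With TMM the median log2 ratios of the 45 to virgin were -0.31 (caged), 0.32 (released) and 0.42 (laying). Without one virgin replicate they were -0.81 to -0.51, 0.15 to 0.23 and 0.18 to 0.40. Of the called dipping circRNAs, 12 of 17 for laying vs virgin and 12 of 21 for caged vs virgin kept the call in every alternative fitted, and no sign was reversed. With the replicate number as a block, calls were 1 for released vs laying, 1 for caged vs laying, 0 for released vs caged, 673 for laying vs virgin and 596 for caged vs virgin, with 17 and 19 of the 45 in the last 2. Same-numbered libraries deviated together in 1 of 18 pairs (correlation above 0.1), and 1 of 12 libraries was closest to its own number, so the numbers were not taken to pair the samples. For 17 of the 45, the lowest released or laying library at the edge held under 20 reads, where the counts limit the precision.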
